A study of Papio anubis and Macaca mulatta with 6 samples.

Results

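Described here are 252 cell barcodes that a marker rule assigned to germ cells of the NANOS3 and L1TD1 state. They were found among 44341 barcodes with at least 1000 UMIs (unique molecular identifiers, which count captured transcripts). The data are single-cell RNA-seq of testes from 2 baboons and 2 rhesus macaques. Markers went against the name for part of the 252: 157 had a UMI of NANOS3 or L1TD1, and in 97 the germ genes did not exceed Sertoli cell markers. A barcode was counted as a germ cell when it held a UMI of at least 3 of 12 germ genes (DAZL, MAEL, STK31, TDRD1, PIWIL2, TEX15, SMC1B, RHOXF1, MAGEB2, TKTL1, DDX4 and SOHLH1), which gave 610 barcodes. It belonged to the NANOS3 state when its summed UMIs of NANOS3, L1TD1, RBM24, BIK, GDA and TSTD1 exceeded those of PIWIL4, DIRAS3, CHGB, PGF, AQP5 and CCDC106. The reverse held in 237 germ barcodes, called the PIWIL4 state, and the sums were equal in 121. The 252 members comprised 163 of 386 baboon germ barcodes and 89 of 224 rhesus germ barcodes, and each species was compared with its own somatic barcodes, 37568 in all, in which none of the 12 germ genes had a UMI.

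Before puberty the seminiferous cords hold germ cells that descend from fetal prospermatogonia and include the undifferentiated spermatogonia from which sperm production later starts. Sertoli cells surround them, and peritubular, Leydig, vascular and blood cells lie outside the cords. NANOS3 is an RNA-binding protein needed to keep primordial germ cells alive, L1TD1 is an RNA-binding protein of pluripotent and early germ cells, and PIWIL4 is a nuclear PIWI protein that directs DNA methylation of transposons in prospermatogonia.

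The baboons were olive baboons (Papio anubis) and the macaques Macaca mulatta, untreated, with testes taken at necropsy. The tissue was digested with collagenase, washed with the aim of removing interstitial cells, and dissociated with trypsin and DNase. How many interstitial cells were removed was not tested. Libraries baboon 1A and baboon 1B came from 1 baboon and baboon 2 from the other; rhesus 1 came from 1 macaque and rhesus 2A and rhesus 2B from the other, so each species had 2 animals. The design text gives the baboons as 15 and 20 months old and the macaques as newborn and 26 months old. The methods description attaches these ages to the opposite species, so no age was used. Baboon 2 was made with version 3 of the 10x 3′ chemistry and the other libraries with version 2, each aiming at 5000 cells.

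Depth differed between libraries and between classes. Total UMIs were 31074298 in baboon 1A, 16875294 in baboon 1B, 49803025 in baboon 2, 38106092 in rhesus 1, 19675453 in rhesus 2A and 18806225 in rhesus 2B. Members numbered 38, 20 and 105 in the baboon libraries and 75, 6 and 8 in the rhesus libraries, in the same order. A member's median UMI count was 10436.5, 10181.5, 21348, 4689, 17845 and 15568, against 1593.5 to 2225 in somatic barcodes, so the members of every library were deeper than its somatic barcodes. Between any 2 libraries 1 to 136 barcode sequences were shared. No barcode was a member in 2 libraries, and the barcodes of 11 members occurred also in another library.

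The label was checked against Sertoli cells, the most abundant somatic cells of these cords, with 10 markers (9 in rhesus). In 155 of the 252 members the germ genes had more UMIs than the Sertoli markers, and in 97 they did not. These 97 were 5, 5 and 67 members of the baboon libraries and 20, 0 and 0 of the rhesus libraries, so they made up most of baboon 2. In the 67 of baboon 2 the Sertoli markers summed to 8761 CPM (UMI counts scaled to the same total in every library and class) and AMH, the hormone that Sertoli cells secrete before puberty, reached 7347 CPM, while the 12 germ genes summed to 221 CPM. In the other 38 members of that library the germ genes summed to 2677 CPM, the Sertoli markers to 291 CPM and AMH to 133 CPM. Somatic barcodes of baboon 2 held 5910 CPM of Sertoli markers. The 67 also had a median of 28884 UMIs, the 38 had 12587.5, and somatic barcodes had 2225.

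**Figure D1:**
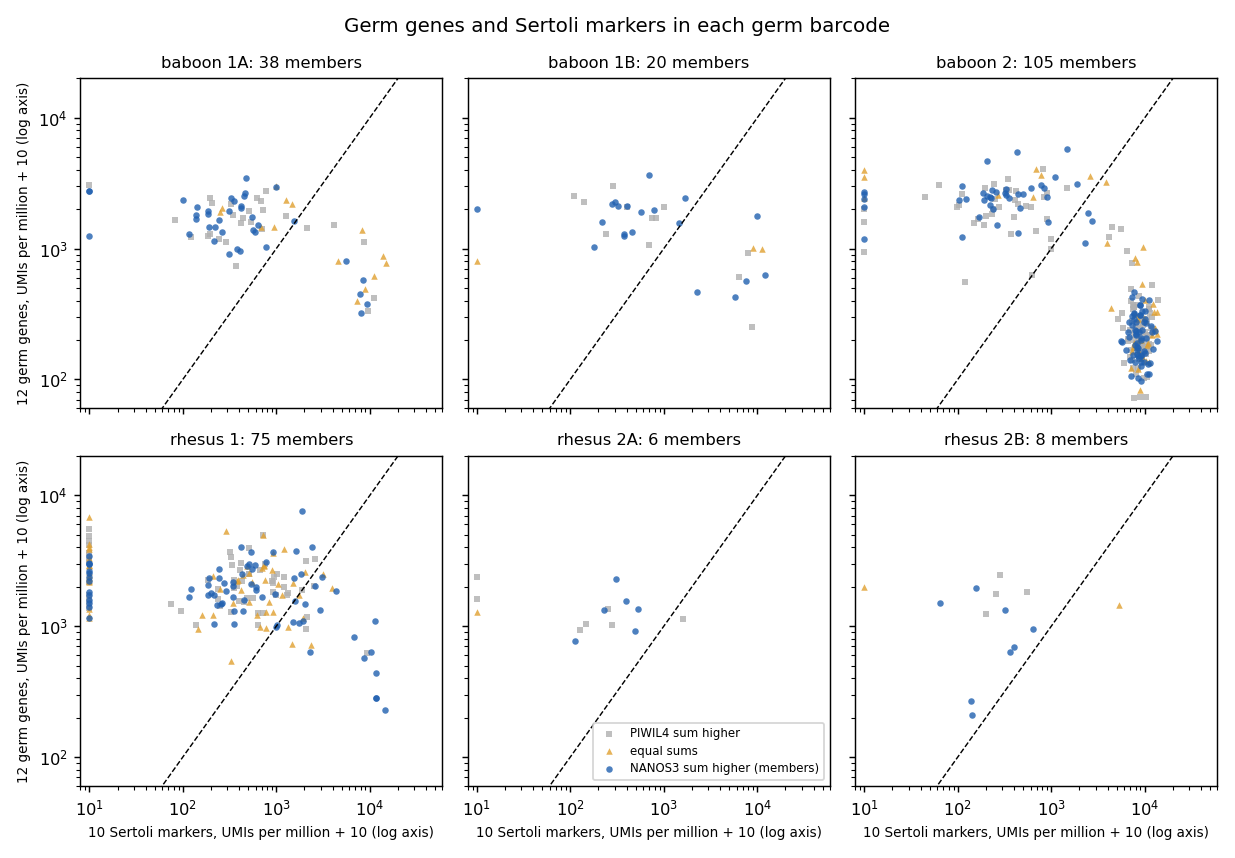
Each point is a germ barcode, with the summed Sertoli markers on the x axis and the summed germ genes on the y axis, both as CPM plus 10 on log axes. Blue circles are members, grey squares the PIWIL4 state and orange triangles barcodes with equal sums, and the dashed line marks equal sums of germ genes and Sertoli markers. In baboon 2, 67 of 105 members lie right of the line, where the Sertoli markers summed to 8761 CPM, and in rhesus 2A and rhesus 2B all 14 lie left of it.

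In baboon 2 the data therefore went against the label for those 67 barcodes taken in sum. They were not uniform, and 1 held 1852.5 CPM of germ genes against 2439.9 CPM of Sertoli markers. A UMI of NANOS3 or L1TD1, genes that the rule selected on, was found in 14 of the 67. The 5 in each of baboon 1A and baboon 1B went the same way in sum, with 430 and 581 CPM of germ genes against 8330 and 7070 CPM of Sertoli markers. Of these 10, 1 had a UMI of NANOS3 or L1TD1. The 20 of rhesus 1 held 754 CPM of the germ genes and 8029 CPM of Sertoli markers, which in sum went against the label too. In 3 of them the germ and Sertoli sums were equal. They held 417 CPM of the NANOS3 sum against 61.3 CPM of the PIWIL4 sum, and 13 had a UMI of NANOS3 or L1TD1. The rule selected on those genes, so these last values do not bear on the label. The results that follow are given for all members and for the 155, called germ-predominant members here. That division was made after the values were seen. NANOS3 or L1TD1 had a UMI in 129 of the 155 and in 28 of the 97. Of the 77 other baboon members, 62 owed their place to BIK or TSTD1 alone. In baboon somatic barcodes BIK was 17.3 to 31.9 CPM and TSTD1 43.1 to 62.5 CPM, no higher than in barcodes of the same library with at most 100 UMIs, which stand for free RNA (32.2 to 38.2 CPM and 61.7 to 68.4 CPM), so UMIs of these 2 genes do not separate expression from background. No doublet caller was run, and whether those barcodes held more than 1 cell was not tested.

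Values just inside and outside the thresholds were close in baboon 2. Its 58 members with 3 germ genes held 189 CPM of germ genes and 8593 CPM of Sertoli markers, and its 141 barcodes with 2 germ genes that otherwise met the rule held 184 and 9199 CPM. In rhesus 1 the 21 members with 3 germ genes held 965 CPM of germ genes, and the 37 barcodes just outside held 454 CPM. Where the sums differed by a single UMI, 25 members of baboon 2 held 123 CPM of the NANOS3 sum, and 42 barcodes with equal sums held 107 CPM.

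The members were selected on the UMIs of the 6 genes of the NANOS3 sum, the 6 of the PIWIL4 sum and the 12 germ genes, so levels of these genes are a description. NANOS3 in germ-predominant members was 281, 249 and 137 CPM in baboon 1A, 1B and 2, and 308, 211 and 299 CPM in rhesus 1, 2A and 2B. Over animals this was 204 ± 94.8 CPM in baboon and 283 ± 36.1 CPM in rhesus (SD, n = 2 animals each). Somatic barcodes held 1.91 to 3.52 CPM of NANOS3 in baboon and 7.49 to 10.4 CPM in rhesus, and over all members baboon 2 stood apart with 38.2 CPM. L1TD1 was 276, 244 and 321 CPM in baboon and 86.4, 67.6 and 76.6 CPM in rhesus, against 0.173 to 0.253 and 0.261 to 0.777 CPM in somatic barcodes. The 3 baboon libraries were all above the 3 rhesus libraries for L1TD1, a difference across builds and annotations that was not tested.

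RBM24, an RNA-binding regulator of splicing, was 230, 181 and 250 CPM in baboon and 135, 33.8 and 30.6 CPM in rhesus. GDA, the guanine deaminase, was 34.1, 39.7 and 37.6 CPM in baboon and 63.4, 67.6 and 30.6 CPM in rhesus, and at most 0.277 CPM in somatic barcodes of any library. BIK, a pro-apoptotic BH3-only protein, was 85.3, 17 and 49.5 CPM in baboon members and 31.9, 31.4 and 17.3 CPM in somatic barcodes. TSTD1, a small sulfurtransferase, was 42.6, 73.7 and 31.7 CPM in baboon members against 60.8, 62.5 and 43.1 CPM in somatic barcodes, so the groups overlapped. In rhesus BIK was 127, 33.8 and 68.9 CPM in members and 2.79 to 4.32 CPM in somatic barcodes. TSTD1 was 60.5, 67.6 and 115 CPM in rhesus members against 41.5 to 55.7 CPM in somatic barcodes. Free RNA of rhesus 1, 2A and 2B held 46.7, 111 and 90.7 CPM of TSTD1, above the members in rhesus 2A. UMIs of TSTD1 therefore do not separate expression from background there.

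**Figure D2:**
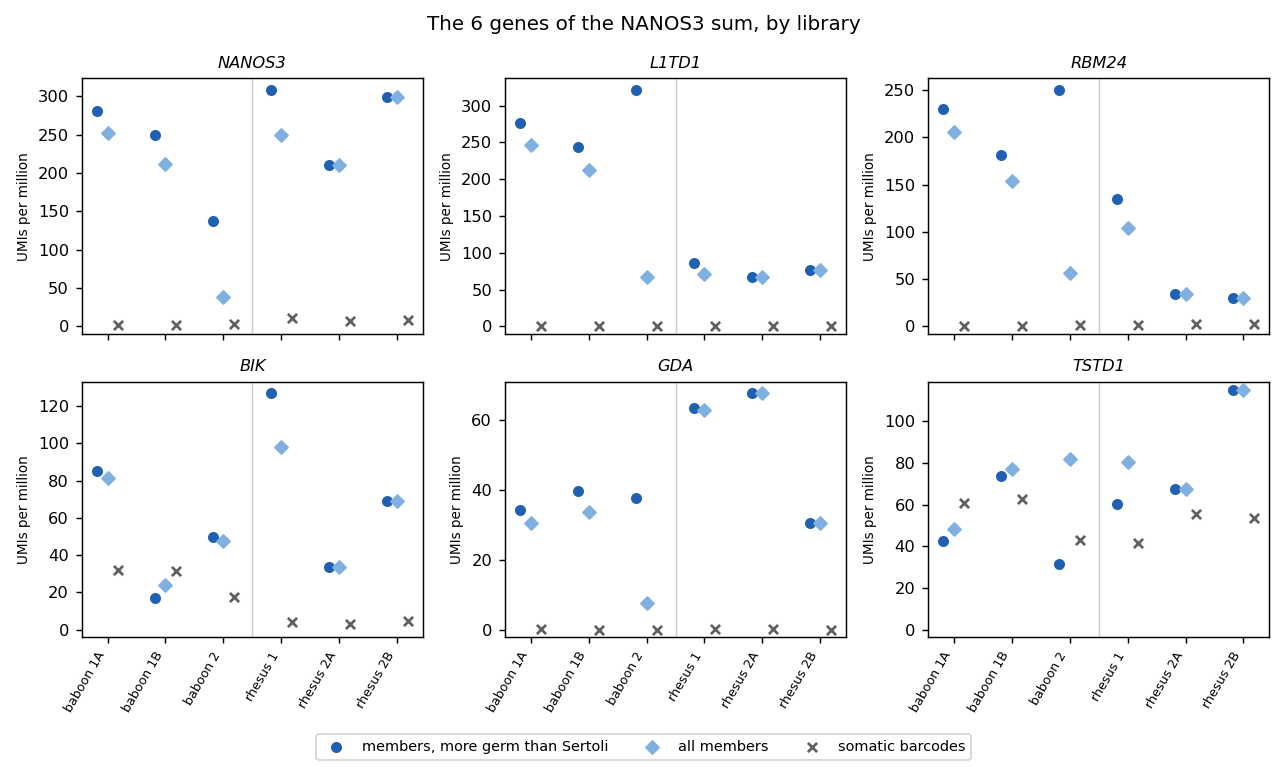
CPM on linear y axes for the 6 genes of the NANOS3 sum in each library, in germ-predominant members (dark circles), all members (light diamonds) and somatic barcodes (crosses). L1TD1, RBM24 and GDA sit near 0 in somatic barcodes and NANOS3 at 1.91 to 10.4 CPM, while TSTD1 (41.5 to 62.5 CPM) and, in baboon, BIK (17.3 to 31.9 CPM) do not. In baboon 2 all members lie below the germ-predominant members for NANOS3 (38.2 against 137 CPM), about level for BIK (47.8 against 49.5 CPM) and above them for TSTD1 (81.8 against 31.7 CPM).

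The state genes lie apart in the genome. Rhesus spans given in this report are from the RefSeq annotation of Mmul_10 and may differ from the gene models used for counting. NANOS3 was annotated at chr20:38164230-38180813 of Panubis1.0 and at chr19:13466053-13482334 of Mmul_10, where the span also holds MIR181C and MIR181D. L1TD1 was annotated at chr1:60580449-60586368 in baboon and chr1:162238034-162243233 in rhesus, and RBM24 at chr6:17303174-17316145 and chr4:152675897-152688820.

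Detection depended on depth, so each barcode was also thinned to 1000 UMIs. NANOS3 was then found in 17.4% of germ-predominant baboon members and 21.7% of rhesus ones, and L1TD1 in 26.7% and 5.8%. In somatic barcodes NANOS3 was found in 0.24% and 0.918%. Without thinning NANOS3 was found in 74.4% and 52.2%, and L1TD1 in 86% and 40.6%.

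Germ genes of the rule differed in level between the species, again as a description. TKTL1, a transketolase-like enzyme, was 789, 363 and 368 CPM in germ-predominant rhesus members and 5.69, 5.67 and 25.8 CPM in baboon ones. DAZL, an RNA-binding regulator of germ cell translation, was 131, 136 and 135 CPM in baboon and 11.5, 33.8 and 7.66 CPM in rhesus. DDX4, the germline helicase VASA, was 125, 198 and 252 CPM in baboon and 43.2, 76.1 and 53.6 CPM in rhesus. TDRD1 reached 596 CPM in baboon 2 and 119 and 125 CPM in the other baboon libraries.

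Shares were taken over sequenced barcodes with at least 1000 UMIs. The cells had been through collagenase and a wash meant to remove interstitial cells, so these are not shares of the testis. Germ-predominant members were 0.339% and 0.504% of barcodes in the 2 baboons and 0.529% and 0.114% in the 2 macaques. Of germ barcodes with more germ than Sertoli UMIs they were 55.2% and 46.3% in baboon and 33.5% and 53.8% in rhesus, 50.8 ± 6.24% and 43.7 ± 14.4% (SD, n = 2 animals). The ranges of the 2 species overlapped.

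Genes outside the rule were tested on UMI counts summed per animal and class with edgeR's quasi-likelihood test, adjusted over all genes tested. In rhesus, 1032 of 7775 genes were higher in all members than in somatic barcodes (13.3%) and 969 were lower (12.5%). With the animal as a block, 2765 were called (35.6%). Leaving out rhesus 2A or rhesus 2B left too few members of that macaque for a sum of its own, and the 2001 calls dropped to 794 and 839. In baboon, 12 of 12779 genes were higher (0.0939%) and 6 lower (0.047%), and 784 were called with the animal as a block (6.14%). In germ-predominant baboon members, 1775 of 8782 genes were higher (20.2%) and 1877 lower (21.4%), with 5162 called under the block (58.8%). In germ-predominant rhesus members, 1224 of 7342 genes were higher (16.7%) and 1374 lower (18.7%), with 3135 called under the block (42.7%).

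Over all members, and among genes with a mean of at least 50 CPM in the higher class, the baboon rises were in transcription factors and an RNA-binding protein. SIX3, a homeobox factor of forebrain and eye, was 83.2 and 22.9 CPM in the members of baboon animals 1 and 2 and 0.0404 and 0.0577 CPM in their somatic barcodes (log2 fold change 9.17, SE 1.36, adjusted p = 0.0464). RBM46, a germ cell RNA-binding protein needed for meiosis, was 108 and 50.8 CPM against 0.121 and 0.288 CPM (8.12, SE 1.14, adjusted p = 0.0409). DLX5, another homeobox factor, was 111 and 30.9 CPM against 0.647 and 0.634 CPM (6.31, SE 0.83, adjusted p = 0.0308). The same direction in both animals was a condition for naming these 3 genes, so it adds nothing to their calls. For each of them animal 2, where most members carried Sertoli markers, was the lower. All 3 missed the threshold with a difference of at least 2 UMIs between the sums, at 2000 UMIs per barcode and against somatic barcodes with fewer than 3 germ genes, in the same direction each time.

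Those genes were also called in rhesus. All 10 baboon calls with a symbol tested in both species were called there in the same direction: SIX3, NKX6-2, DLX5, RNF17, GFRA2 and RBM46 were higher, and HBB, CAV1, CD74 and APOD were lower. These were 0.719% of the 835 rhesus genes called higher and 0.515% of the 776 called lower. Of the 6443 symbols tested in both species, 13% were called higher and 12% lower in rhesus. RNF17, a tudor protein of the piRNA pathway, was 26.6 and 16.8 CPM in baboon members and 7.84 and 36.2 CPM in rhesus members. GFRA2, a GDNF-family co-receptor, was 53.2 and 26.7 CPM in baboon and 49 and 4.02 CPM in rhesus.

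In rhesus the largest rises over all members, among genes with a mean of at least 50 CPM there, included germline and cancer-testis genes. FMR1NB, a cancer-testis antigen, was 58.8 and 153 CPM in the members of rhesus animals 1 and 2 and 0.277 and 0.226 CPM in somatic barcodes (log2 fold change 8.10, SE 0.71, adjusted p = 1.85e-05). REC114, a meiotic recombination factor, was 51 and 64.3 CPM against 0.277 and 0.0452 CPM (7.88, SE 0.84). COX8C, a testis form of a cytochrome oxidase subunit, was 239 and 301 CPM against 1.22 and 0.678 CPM (7.65, SE 0.53). The other 9 of the 12 largest rises were ASZ1, 2 annotated copies of XAGE5, RHCE, NOL4, TUBA3D, PAGE1, LDHC and SLC25A31, with log2 fold changes of 7.08 to 7.73. The 2 XAGE5 entries share a symbol in the annotation. Whether reads were divided between them was not tested, so each is uncertain on its own.

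Genes at the other end marked blood, vessels and connective tissue. In rhesus members CAVIN2, a caveolar protein of endothelium, had 0 UMIs against 90.5 and 107 CPM in somatic barcodes, at least 25.21-fold lower when 3 counts over both animals are allowed. HBB, the beta-globin chain, was 1.96 and 8.03 CPM against 225 and 1811 CPM. In baboon members HBB was 0 and 1.15 CPM against 86.3 and 200 CPM (log2 fold change -7.60, SE 0.90), and CD74, the invariant chain of antigen presentation, was 3.33 and 0.764 CPM against 201 and 90 CPM. HBB, CD74, CAV1 and APOD all missed the threshold in baboon with a difference of at least 2 UMIs between the sums and against somatic barcodes with fewer than 3 germ genes, in the same direction, and passed at 2000 UMIs per barcode. The somatic HBB level of the first baboon came from baboon 1A, since baboon 1B held 0.336 CPM.

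Germ-predominant members gave a longer list in baboon. ASZ1, which anchors the piRNA machinery to mitochondria, was 73.9, 153 and 79.3 CPM in baboon 1A, 1B and 2 and at most 0.0632 CPM in somatic barcodes (log2 fold change 10.61, SE 0.72, adjusted p = 0.000163). ISL1, a LIM homeobox factor, was 151 and 77.3 CPM in the 2 animals against 0 and 0.115 CPM. CCDC172, SH2D4B, LUZP4, TFDP3, DPPA4, NANOS2, MAGEC2 and XAGE5 were called with log2 fold changes of 8.92 to 9.93. HBB, PLXNC1, NEDD9, SYNPO, SMIM10 and LIPH had 0 UMIs there, at least 18.08-fold lower in each case with 3 counts allowed over both animals.

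Over the germ-predominant members, 5476 symbols were tested in both species. Of those called higher, 700 were shared, which is 66.4% of 1054 in baboon and 74.2% of 943 in rhesus, where those called higher were 19.2% and 17.2% of the symbols tested, and 1 baboon gene was called lower in rhesus. Of those called lower, 677 were shared, 60.5% of 1119 in baboon and 72.4% of 935 in rhesus, where those called lower were 20.4% and 17.1% of the symbols tested, and 3 were called higher in rhesus. The shared rises that were largest in their weaker species were FOXR1, SIX3, REC114, ASZ1, EMX1, BRDT, XAGE5, HOXB9, NOL4 and CETN1. FOXR1, a forkhead factor, was 51.1 and 45.6 CPM in the baboons and 54.7 and 52.2 CPM in the macaques, against at most 0.111 CPM in somatic barcodes. HOXB9 was 0 and 64.3 CPM in the 2 macaques, so there it rested on animal 2.

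The 16 lists of germ cell and signalling genes describe the state further, each by counts of the genes that passed the filter on low counts, which a gene high only in members can pass. A gene near 0 in somatic barcodes entered the denominators only through the members, so these counts and medians are a description and support nothing further. Over all members the baboon fit called 1 gene of these lists, RBM46, and rhesus counts below are over all members. Baboon counts are therefore given with the animal as a block and, separately, for germ-predominant members. Each count below is set against the share of all genes called in the same fit: 13.3% higher and 12.5% lower in rhesus over all members, 6.14% in either direction in baboon with the block, and 20.2% higher and 21.4% lower in germ-predominant baboon members. The median log2 fold change over all genes tested was -0.12 in baboon and 0.00 in rhesus over all members, and -0.05 and 0.01 in germ-predominant members.

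Genes of undifferentiated spermatogonia were called higher in part. Of 20 listed, 13 were tested in rhesus, 9 rose (13.3% over all genes), none fell and the median log2 fold change was 3.69. In baboon 19 were tested, none was called over all members without the block and 10 rose with it (6.14% of all genes called), and in germ-predominant members 13 of 17 rose (20.2% over all genes) and 1, the integrin ITGA6, fell, with a median of 3.87. UTF1, a chromatin factor of spermatogonia, was 685, 782 and 648 CPM in germ-predominant baboon members and 25.2, 22.3 and 41.2 CPM in somatic barcodes (log2 fold change 3.89, SE 0.32). ID4, an inhibitor of differentiation that marks spermatogonial stem cells, was 489, 476 and 361 CPM in baboon and 248, 270 and 306 CPM in rhesus, and 12 to 39.5 CPM in somatic barcodes of either. UCHL1, a deubiquitinase, was 304, 363 and 339 CPM in baboon and 248, 220 and 214 CPM in rhesus, against at most 6.99 CPM, and the libraries of each species lay close together. ETV5, SALL4, ELAVL2 and EGR4 rose in rhesus over all members and in germ-predominant baboon members. Without rhesus 1 the log2 fold change of EGR4 in germ-predominant rhesus members was -0.32. NANOS2, the translational repressor of stem cell maintenance, was 108, 113 and 57.5 CPM in baboon and had 0 UMIs in any class of rhesus barcodes.

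Genes of differentiating spermatogonia and meiosis were mixed in kind. In rhesus 2 of 3 tested genes of differentiation rose over all members, DMRT1 and ESX1, and in baboon 4 of 8 rose with the block and 5 of 7 rose in germ-predominant members. DMRT1, which controls entry into meiosis, was 69.1, 25.4 and 45.9 CPM in germ-predominant rhesus members against 0.666 to 1.13 CPM. In baboon it was 165, 153 and 121 CPM against 63.7, 70.3 and 44.5 CPM, which missed the threshold (adjusted p = 0.0992) and passed with the animal as a block (adjusted p = 0.00485). KIT, the receptor that marks differentiating spermatogonia, was 22.7, 5.67 and 13.9 CPM in baboon and 5.76, 8.45 and 15.3 CPM in rhesus, and STRA8 had 0 UMIs in members. Of the meiosis list 3 of 4 tested genes rose in rhesus, 5 of 8 in baboon with the block and 7 of 8 in germ-predominant baboon members. SYCP1, of the synaptonemal complex, was 51.2, 51 and 73.3 CPM in baboon and 37.4, 42.3 and 7.66 CPM in rhesus, against at most 0.61 CPM in somatic barcodes.

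Part of the primordial germ cell programme was detected. In rhesus 4 of 9 tested genes rose and 1 fell over all members (13.3% and 12.5% over all genes). In baboon 6 of 12 rose with the block (6.14% of all genes called), and 7 of 10 rose and 1 fell in germ-predominant members (20.2% and 21.4% over all genes). TFAP2C and TFAP2A, AP-2 factors of germ cell specification, DND1, the partner of NANOS proteins, and ALPL, alkaline phosphatase, rose in both. TFAP2C was 28.4, 5.67 and 11.9 CPM in baboon and 43.2, 8.45 and 30.6 CPM in rhesus. DPPA4 was 54, 79.3 and 91.1 CPM in baboon and 17.3, 16.9 and 7.66 CPM in rhesus. POU5F1, the pluripotency factor OCT4, was 0, 0 and 1.98 CPM in baboon and 0, 25.4 and 38.3 CPM in rhesus, where the libraries of the 2 macaques differed.

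The piRNA pathway silences transposons in the germline. Over all members 10 of 11 tested genes rose in rhesus, with a median of 4.66, and 12 of 19 rose in baboon with the block. In germ-predominant members 15 of 16 rose in baboon, with a median of 5.91. GTSF1, a PIWI cofactor, was 59.7, 96.3 and 77.3 CPM in baboon and 202, 245 and 230 CPM in rhesus, against at most 0.231 and 4.05 CPM. HENMT1, which methylates piRNA ends, was 227, 232 and 149 CPM and 141, 186 and 245 CPM, against at most 6.88 CPM. TDRD6, TDRD10, TDRKH, FKBP6 and SPOCD1 were called in both species, and HSP90AA1, a chaperone, was 4575, 4046 and 4640 CPM in baboon members against 809 to 871 CPM.

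Many cancer-testis antigens are X-linked genes silent in most somatic cells, and the listed ones were called higher in part. Over all members 5 of 7 tested rose in rhesus, and 6 of 9 rose in baboon with the block. MAGEC2 was 96.7, 68 and 71.3 CPM in baboon and 63.4, 42.3 and 30.6 CPM in rhesus, against at most 0.721 CPM. FTHL17 was 108, 73.7 and 53.5 CPM in baboon and 43.2, 93 and 84.2 CPM in rhesus. Among germ cell RNA-binding proteins 2 of 11 tested rose in rhesus, RBM46 and ELAVL4, and none fell, a count near the 13.3% of all genes called higher. In germ-predominant baboon members 6 of 13 rose, both of these among them, and 3 fell, against 20.2% and 21.4% of all genes.

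**Figure D3:**
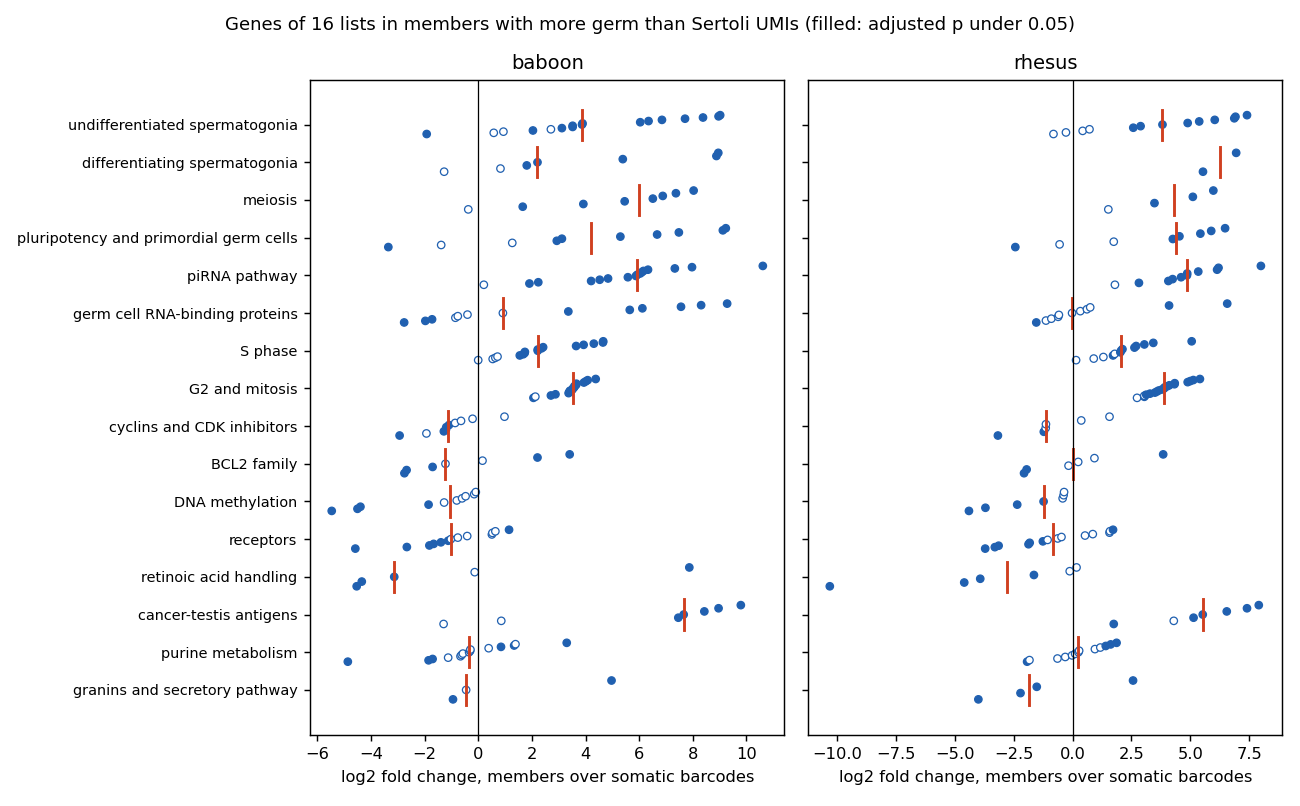
Log2 fold change of germ-predominant members over somatic barcodes (x axis) for each tested gene of 16 lists (y axis), baboon left and rhesus right. Filled points had an adjusted p under 0.05 and red bars are list medians. The piRNA list (15 of 16 in baboon and 10 of 11 in rhesus called higher) and the G2 and mitosis list (16 of 17 and 17 of 19) lie right of 0, while most called DNA methylation genes and receptors lie left of it.

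Cell cycle genes included many calls higher in rhesus and in germ-predominant baboon members, and fewer over all baboon members. Of the G2 and mitosis list 16 of 19 tested genes rose in rhesus over all members (median 3.66), 9 of 22 in baboon with the block, and 16 of 17 in germ-predominant baboon members (median 3.53). Of the S phase list 8 of 13 rose in rhesus, 3 of 19 in baboon with the block and 13 of 17 in germ-predominant baboon members. No gene of either list was called over all baboon members without the block. CKS2, a CDK-binding subunit, was 694, 725 and 939 CPM in baboon and 1342, 837 and 819 CPM in rhesus, against 17.3 to 38.5 CPM, and every library lay in the high range. TOP2A, topoisomerase II of dividing cells, was 111, 28.3 and 97.1 CPM in baboon and 228, 42.3 and 30.6 CPM in rhesus. CDK1 was 132, 16.9 and 7.66 CPM and CCNA2 was 121, 0 and 15.3 CPM in rhesus 1, 2A and 2B, against 2.66, 11 and 11.8 CPM and 2.83, 9.32 and 8.45 CPM in somatic barcodes. For those 2 genes the rise was in rhesus 1, and without it the log2 fold changes in germ-predominant members were -0.34 for CDK1, -0.57 for CCNA2 and, for CDT1 of the S phase list, -0.64. The members of rhesus animal 2 numbered 14, and rhesus somatic barcodes were themselves higher for both genes in animal 2.

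**Figure D4:**
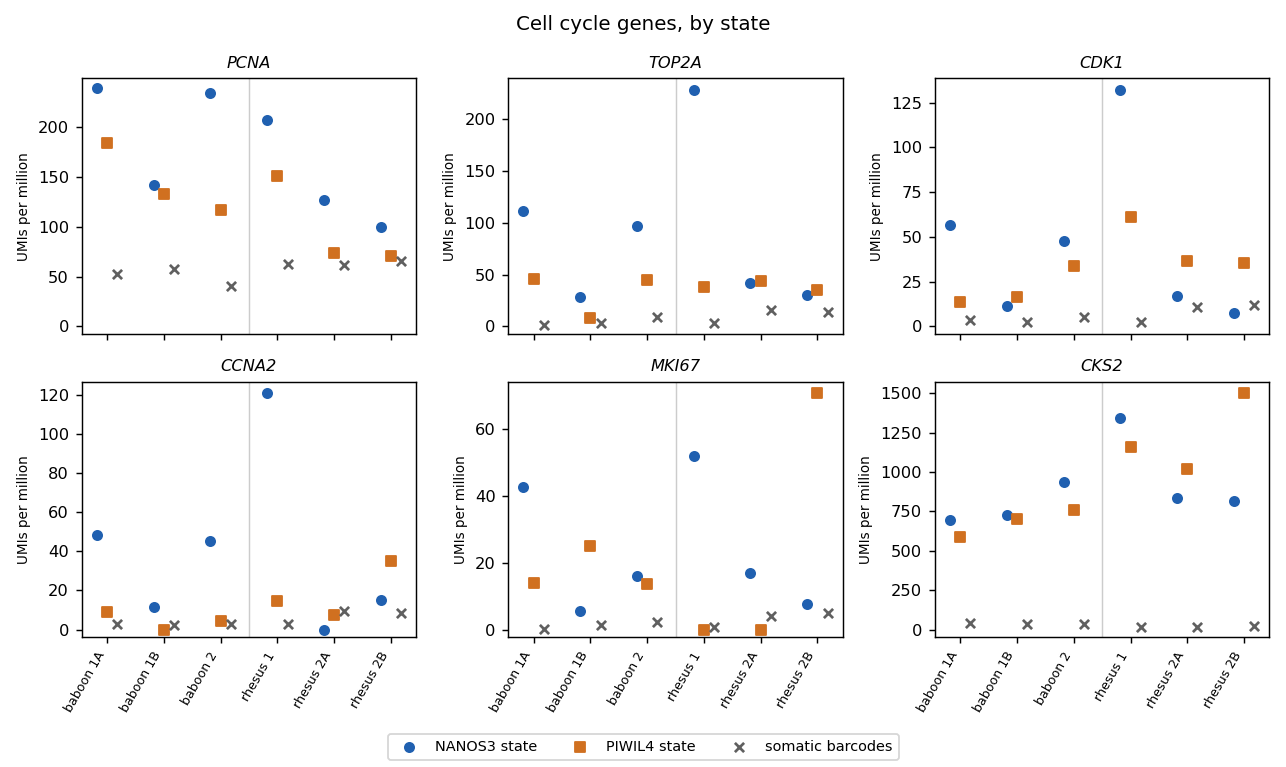
CPM on linear y axes for 6 cell cycle genes in each library, in germ-predominant members (NANOS3 state, circles), the germ-predominant PIWIL4 state (squares) and somatic barcodes (crosses). CKS2 is high in both germ states of every library, and CDK1 and CCNA2 in the NANOS3 state are high in rhesus 1 (132 and 121 CPM) and low in rhesus 2A and 2B.

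Regulators of the cell cycle and of cell death included genes that fell. Of the cyclins and CDK inhibitors 1 of 6 tested fell in rhesus over all members, CDK4, where 12.5% of all genes were called lower. In germ-predominant baboon members 5 of 10 fell and none rose, where 21.4% of all genes were called lower and 20.2% higher. CDK4 was 99.5, 102 and 93.1 CPM in baboon members against 149, 152 and 162 CPM, and 69.1, 67.6 and 123 CPM in rhesus against 137 to 142 CPM. RB1, the retinoblastoma protein, was 0, 5.67 and 15.9 CPM in germ-predominant baboon members against 41.4 to 50.1 CPM. In the BCL2 family 1 of 7 tested rose and 1 fell in rhesus, counts at the shares over all genes (13.3% and 12.5%), and 2 of 7 rose and 3 fell in germ-predominant baboon members (20.2% and 21.4%). In rhesus PMAIP1, which encodes NOXA, was 69.1, 76.1 and 115 CPM in germ-predominant members against 2.27 to 5.44 CPM, and BAD fell. MCL1, a survival factor, was 65.4, 79.3 and 47.6 CPM in germ-predominant baboon members against 209 to 350 CPM, and fell there (log2 fold change -2.75, SE 0.37). In rhesus over all members MCL1 missed the threshold (adjusted p = 0.0784) and passed with the animal as a block (adjusted p = 0.00167).

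The list of DNA methylation genes had no gene called higher in either species over all members. In rhesus 3 of 7 tested fell over all members, where 12.5% of all genes did, and in germ-predominant baboon members 4 of 10 fell and none rose, where 21.4% of all genes fell and 20.2% rose. The 3 were GADD45A, GADD45B and GADD45G, stress-induced genes linked to DNA demethylation, and GADD45G was 28.4, 68 and 7.93 CPM in germ-predominant baboon members against 348 to 453 CPM. DNMT1, the maintenance methyltransferase, was 42.6, 28.3 and 51.5 CPM in those members and 29.6 to 40 CPM in somatic barcodes, and was not called.

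Receptors and retinoic acid genes included calls in both directions. Over all genes, 13.3% were called higher and 12.5% lower in rhesus over all members, and 20.2% and 21.4% in germ-predominant baboon members. In rhesus 1 of 15 receptors tested rose and 6 fell over all members, and in germ-predominant baboon members 1 of 13 rose and 6 fell. BMPR1B, a BMP receptor, was 23, 25.4 and 68.9 CPM in germ-predominant rhesus members against 6.21 to 9.32 CPM and rose there over all members (adjusted p = 0.0236). Of the retinoic acid list 1 of 7 rose and 3 fell in rhesus over all members, and 1 of 5 rose and 3 fell in germ-predominant baboon members. ALDH1A1, which makes retinoic acid, was 17.1, 34 and 5.94 CPM in germ-predominant baboon members and 14.4, 33.8 and 0 CPM in rhesus ones, against 142 to 334 CPM.

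Purine genes and granins included calls in both directions. In rhesus 3 of 13 purine genes rose and 1 fell over all members (13.3% and 12.5% over all genes), and in germ-predominant baboon members 3 of 15 rose and 3 fell, near the 20.2% and 21.4% over all genes. GMPS, which makes GMP, rose and HPRT1, the salvage enzyme, fell in both. HPRT1 was 76.8, 96.3 and 121 CPM in germ-predominant baboon members against 222 to 243 CPM. In the granin and secretory list 2 of 4 fell in rhesus over all members, CHGA and CPE, where 12.5% of all genes fell. In germ-predominant baboon members 1 of 3 rose and 1 fell, where 20.2% and 21.4% of all genes did, and with so few genes tested nothing is read from either count.

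Stromal markers were low in members, and other somatic markers varied between libraries. Stromal markers fell in 7 of 7 tested in rhesus over all members, where 12.5% of all genes fell. In germ-predominant baboon members 6 of 6 fell, where 21.4% of all genes did. They summed to 123 to 236 CPM in germ-predominant members against 939 to 6206 CPM. The most abundant was IGFBP3, an IGF-binding protein, or DCN, decorin. Of the tested myoid, pericyte, endothelial and macrophage markers, 3 of 4, 2 of 2, 1 of 3 and 2 of 4 fell in rhesus over all members and none rose. The share of all genes called lower in that fit was 12.5%, and with so few markers tested per list nothing is read from single counts. In baboon over all members, 2 of 3, 3 of 3, 2 of 4 and 0 of 2 fell with the animal as a block, where 223 of 12779 genes were called lower. HBB fell in both, and no lymphoid marker was called. Endothelial markers summed to 43.2 CPM in germ-predominant members of rhesus 1 against 31.3 CPM in somatic barcodes, macrophage markers to 17 against 12.9 CPM in baboon 1B and lymphoid markers to 25.4 against 11.5 CPM in rhesus 2A, so members were not below somatic barcodes there. Their part in the results was not tested. STAR, the cholesterol transporter of steroid-making cells, was 325, 346 and 245 CPM in germ-predominant rhesus members and 333, 315 and 230 CPM in the rhesus PIWIL4 state, against 88.9, 82.7 and 96.3 CPM in somatic barcodes (over all members log2 fold change 1.16, SE 0.34, adjusted p = 0.025). In baboon STAR had 0 UMIs in germ-predominant members and 13.3 to 22.8 CPM in somatic barcodes. INSL3, the defining Leydig hormone, was 37.4, 16.9 and 15.3 CPM in germ-predominant rhesus members against 2692, 844 and 1304 CPM, so the rhesus STAR level was not accompanied by the other Leydig markers, which summed with STAR to 260 to 397 CPM.

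Sertoli markers in members are given beside these results because they moved with them. In all members of baboon 2 they summed to 7128 CPM, in rhesus 1 to 2785 CPM and in the other 4 libraries to between 237 and 1547 CPM. In germ-predominant members the sum was 237 to 578 CPM, and free RNA held 4229 to 8494 CPM. Those members were selected for fewer Sertoli than germ UMIs, which keeps their sum low, so nothing is read from this difference. Their part in the baboon results over all members was not tested beyond the comparison of all with germ-predominant members. SOX9, a Sertoli factor, was 96.7, 153 and 85.2 CPM in germ-predominant baboon members and 13.8, 41.7 and 20.3 CPM in the PIWIL4 state.

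Members were also compared with the PIWIL4 state, a comparison of far fewer barcodes than that with somatic barcodes, so the numbers of calls in the 2 comparisons are not set against each other. In baboon none of 12779 genes was called over all members (0%), with 88 at an unadjusted p under 0.05 and 1 called by DESeq2, and 1 was called with the animal as a block (0.00783%), ASB9. In germ-predominant baboon members none of 8782 was called (0%), with 1152 at an unadjusted p under 0.05. With the animal as a block 198 were higher (2.25%) and 238 lower (2.71%). In rhesus 3 genes were called over all members (0.0386%) and 81 with the block (1.04%). In germ-predominant rhesus members 3 were called (0.0409%), and with the block 30 were higher (0.409%) and 24 lower (0.327%).

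A large difference was seen in each species in 1 of a pair of neighbouring X-linked genes for ankyrin-repeat and SOCS-box proteins, which recruit targets to ubiquitin ligases. ASB11 in rhesus, at chrX:14965142-14996845, was 804, 515 and 1018 CPM in germ-predominant members and 31.9, 7.33 and 0 CPM in the PIWIL4 state (log2 fold change 5.18, SE 0.58, adjusted p = 0.0035), and 4.88 to 7.93 CPM in somatic barcodes. ASB11 was called over all members too (adjusted p = 0.011). The same direction in both animals was a condition for naming it. Without rhesus 2A or rhesus 2B no rhesus gene was called, since 1 macaque was then left with a sum of members. In baboon ASB9, at chrX:130318459-130347628, was 611, 754 and 749 CPM in germ-predominant members and 46.1, 100 and 36.2 CPM in the PIWIL4 state (3.78, SE 0.43), which missed the threshold (adjusted p = 0.0792) and passed with the animal as a block (adjusted p = 4.95e-05). ASB11 had 0 UMIs in every baboon class, and ASB9 was not analysed here in rhesus. The 2 symbols name different members of a family, each taken from the annotation of its own species. Whether reads of this locus were assigned alike in the 2 annotations was not tested, and the genes were not compared directly.

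BUD23, a methyltransferase of ribosomal RNA, was higher in members in every library, least so in rhesus 2A, and missed the threshold in both species without the block. It was 2198, 2255 and 2661 CPM in germ-predominant baboon members against 438, 517 and 459 CPM in the PIWIL4 state, and 3788, 1293 and 3346 CPM against 640, 894 and 512 CPM in rhesus, while somatic barcodes held 186 to 209 CPM. The log2 fold changes were 2.36 (SE 0.27) and 2.07 (SE 0.39), with adjusted p = 0.0792 and 0.108, and 0.000176 and 0.0058 with the animal as a block. GMPR, which converts GMP to IMP, was 225, 346 and 192 CPM against 120, 58.3 and 52 CPM in baboon and 349, 67.6 and 329 CPM against 78.2, 65.9 and 53 CPM in rhesus, and was called in both species only with the block (adjusted p = 0.00469 and 0.0161). In rhesus MCUB, a subunit of the mitochondrial calcium uniporter, was higher (328 and 249 CPM in the 2 animals against 26.1 and 31.1 CPM) and TMEM45A lower (28.8 and 16.1 against 174 and 233 CPM). In baboon MCUB was 398, 397 and 369 CPM against 101, 117 and 92.6 CPM, and was called there with the block (adjusted p = 0.00442).

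**Figure D5:**
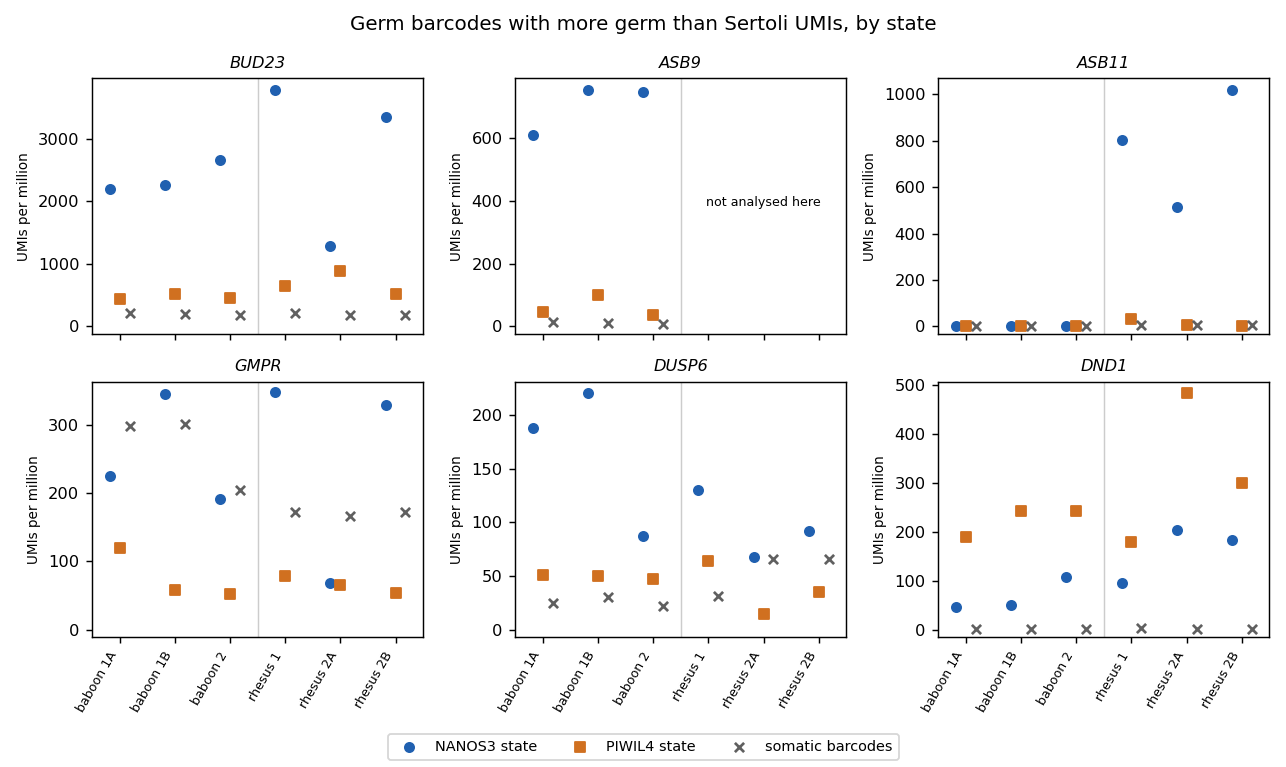
CPM on linear y axes for 6 genes in each library, in germ-predominant members (NANOS3 state, circles), the germ-predominant PIWIL4 state (squares) and somatic barcodes (crosses). BUD23 and GMPR are higher in the NANOS3 state in every library, narrowly so for GMPR in rhesus 2A (67.6 against 65.9 CPM), ASB9 in baboon and ASB11 in rhesus are far higher, and DND1 is lower in every library.

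With the block, germ-predominant baboon members differed further in genes of several lists, none of which passed without it. Higher were NANOS2, DUSP6, ACVR2B, DMRT1, CCND2, ADSL and the cycle genes MCM6, CCNA2 and UBE2C. Lower were MORC1, TSPAN33, SYCP1, DND1, FKBP6, SPOCD1, DNMT3L, RBM38, GADD45B and PAGE4. DNMT3L, the cofactor of de novo DNA methylation, was 8.53, 11.3 and 5.94 CPM against 124, 117 and 115 CPM (log2 fold change -3.97, adjusted p = 0.0962, and 0.00267 with the block). MORC1, a transposon silencer, was 56.9, 34 and 47.6 CPM against 147, 217 and 151 CPM, and SYCP1 51.2, 51 and 73.3 CPM against 217, 192 and 224 CPM. For these 3 genes, taken from the calls with the block, no library of one state reached the range of the other, which is a description only. NANOS2 was 108, 113 and 57.5 CPM against 13.8, 16.7 and 18.1 CPM, and DUSP6, a feedback phosphatase of ERK signalling, 188, 221 and 87.2 CPM against 50.7, 50 and 47.4 CPM. In rhesus BRDT, a testis bromodomain protein, was 31.7, 25.4 and 0 CPM against 125, 103 and 159 CPM (adjusted p = 0.151, and 0.0325 with the block). EGR4, an early-response transcription factor, was 37.4, 0 and 7.66 CPM in rhesus and 34.1, 28.3 and 9.91 CPM in baboon, against 133, 95.2 and 194 CPM and 166, 91.6 and 99.4 CPM in the PIWIL4 state.

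The other genes nearest the threshold were C20H19orf84, CD320 and RBM38 in baboon and SURF1, COX19, RBMX, MRPL20 and NUB1 in rhesus. C20H19orf84, an uncharacterised open reading frame in this annotation, was 59.7, 45.3 and 43.6 CPM in germ-predominant members and 438, 583 and 373 CPM in the PIWIL4 state (log2 fold change -3.16, SE 0.31, adjusted p = 0.0634, and 4.02e-05 with the block). COX19, a cytochrome oxidase assembly factor, was 248 and 197 CPM in the 2 macaques against 46.4 and 36.2 CPM. CD320 was 48.3, 45.3 and 45.6 CPM against 203, 200 and 217 CPM in baboon, and 588, 566 and 421 CPM against 383, 469 and 494 CPM in rhesus, where the states overlapped.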

How the data were processed

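Testis cells were profiled by 10x Genomics 3′ single-cell RNA-seq in 6 libraries from 4 animals. The deposited matrices hold raw UMI counts of every barcode, made by the authors with Cell Ranger 3.1.0 against Panubis1.0 for baboon and Mmul_10 for rhesus, and the processing notes also name Seurat 3.2.3. No cell calling had been applied, so barcodes with at least 1000 UMIs were kept here. No doublet caller was run and free RNA was not subtracted. Somatic barcodes had a UMI of none of the 12 germ genes (11 in rhesus, where MAGEB2 was not analysed here).

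Counts were summed per animal and class (NANOS3 state, PIWIL4 state, equal sums, somatic), with at least 10 barcodes a sum (5 for sums per library), and tested with edgeR 4.0.16 in R 4.3.3 (TMM normalization, filterByExpr, quasi-likelihood test, every class with such a sum in the fit, Benjamini-Hochberg adjustment over all genes tested, called at an adjusted p under 0.05). Equal sums reached 10 barcodes in neither baboon among germ-predominant barcodes, so that class did not enter there. In rhesus only animal 1 reached it. With 2 animals per species, p-values rest on these animals alone, with the spread pooled over the classes in the fit. In baboon the second animal was also the only library of version 3 chemistry. Animal and chemistry cannot be told apart there, and the block carries both. The 24 genes of the rule were not counted as calls, nor were the Sertoli markers in fits of germ-predominant members, which had more UMIs of the germ genes than of the Sertoli markers. Levels are CPM, UMI counts scaled to the same total in each class of a library, not scaled by length, and are not compared between genes. Intervals and limits cover counting error only. Scripts used Python 3.11.15, and the tests were tested on simulated data.

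The classes of an animal come from the same testes, so the animal was also used as a block. Differences between animals correlated across genes at 0.187 (members and somatic barcodes) and 0.707 (members and PIWIL4 state) in baboon, and at 0.247 and 0.253 in rhesus. Named genes were the 12 largest and 6 smallest log2 fold changes among calls with a mean of at least 50 CPM in the higher class and the same direction in both animals, or the 6 smallest p-values where fewer passed, with members of the lists and the genes shared by both species. Other genes given from a list were chosen after their values were seen. The members and lists were chosen with earlier results of these data known. Alternatives for all members were other UMI and germ gene minimums, other rules of the state, DESeq2 1.42.0, no filter, sums per library and each library left out. Germ-predominant members were refitted only with the animal as a block and with each library left out. Some members of the lists are not reported here by name.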

Additional observations from a re-analysis of the deposited data

Results flagged for a closer look

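For a few genes the difference had opposite signs in the 2 species, both animals of one species one way and both animals of the other the opposite way, and the difference between species was not tested. CPEB1, which controls translation through polyadenylation, had a log2 fold change of germ-predominant members over somatic barcodes of 5.65 in baboon and -0.90 in rhesus, where it missed the threshold. Its level in rhesus was 3793, 3955 and 4150 CPM in those members and 5365, 5262 and 5363 CPM in somatic barcodes. In baboon it was 276, 198 and 174 CPM against 1.77, 1.46 and 4.44 CPM. The rhesus level was thus far higher in every class, a gap across different builds and annotations. Whether reads were assigned to CPEB1 alike in both was not tested, so nothing is read from its opposite signs. PCSK1N, a granin-like inhibitor of prohormone convertase, had values of -0.94 in baboon and 2.57 in rhesus, and alone of the 4 passed the threshold in both. STAR, over all members, had values of -1.90 in baboon, which missed the threshold, and 1.16 in rhesus. ACVR1, a type I receptor of BMP signalling, had values of 0.31 in baboon, which missed the threshold, and -1.80 in rhesus.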

How the results depend on the processing

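The 18 baboon genes called against somatic barcodes became 6 at 2000 UMIs per barcode, 1025 with 4 of 12 germ genes, 0 with a difference of at least 2 UMIs, 77 without TSTD1 in the sum, 2277 with germ cells of 3 somatic markers left out, 5 against somatic barcodes with fewer than 3 germ genes, 3652 in germ-predominant members, 738 with DESeq2, 1300 without a filter, 784 with the animal as a replicate block, 398 with only the 2 classes compared and 1065 with sums per library. Leaving out libraries gave 17 to 368. The 2001 rhesus calls became 1173 with 2 of 12 germ genes, 1251 with germ cells of 3 somatic markers left out and 3132 with sums per library, and 794 to 839 with a library left out. Sums per library count 2 libraries of 1 animal as separate samples, so those counts rest on more samples than animals, and they include the 6 and 8 members of rhesus 2A and 2B. In germ-predominant members, leaving out libraries gave 3086 to 3380 calls in baboon and 1640 to 1719 in rhesus, against 3652 and 2598.

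Against the PIWIL4 state, the 0 baboon calls became 1 with DESeq2, 5 without a filter and 1 with the replicate block, and 436 in germ-predominant members with the block. The 3 rhesus calls became 1 without TSTD1, 0 with germ cells of 3 somatic markers left out, 34 with DESeq2, 55 without a filter, 81 with the block and 54 in germ-predominant members with the block. Leaving out rhesus 2A or 2B gave 0 in both sets of members. The cause of these changes was not tested, except that leaving out rhesus 2A or 2B, or rhesus germ cells with 3 somatic markers, leaves 1 macaque with a sum of members.

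Of the named genes, 4 changed direction, all in germ-predominant rhesus members without rhesus 1, with log2 fold changes of -0.57 for CCNA2, -0.34 for CDK1, -0.32 for EGR4 and -0.64 for CDT1. In germ-predominant members against somatic barcodes, leaving out a library gave 361 baboon and 327 rhesus values. Of these, 37 and 49 kept their sign but shifted by more than their SE, in fits with no test. Other alternatives were not run on germ-predominant members, except the block. Leaving out baboon 2 or rhesus 1 leaves 1 animal of the species and gives values with no test. The 14 members of the second macaque limit what can be detected there.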
